A study of Mus musculus and Rattus norvegicus with 28 samples.

Results

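The genes described here are the ligands of the epidermal growth factor (EGF) family with their receptors in perinatal heart muscle cells. Members were taken by gene symbol: the 6 ligands Ereg (epiregulin), Areg (amphiregulin), Hbegf (heparin-binding EGF-like growth factor), Btc (betacellulin), Tgfa (transforming growth factor alpha) and Nrg1 (neuregulin 1), and the 4 receptors Egfr, Erbb2, Erbb3 and Erbb4. All 10 were found among the 55450 mouse genes and the 32623 rat genes of the files. The rule itself used no measured value. The study had, however, already shown Ereg in these data as an example of promoter accessibility and expression that increased after birth.

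Cardiomyocytes were isolated from the left ventricles of C57BL/6 mice of both sexes at embryonic day 18.5 (E18.5) and at postnatal days 1, 3 and 7 (P1, P3 and P7), by enzymatic digestion with removal of attaching non-muscle cells. At each time point 2 RNA-seq libraries and 2 ATAC-seq peak lists were analysed, where ATAC-seq maps open chromatin with the Tn5 transposase. The question was how expression and promoter accessibility of these genes changed across birth. In a separate culture experiment, cardiomyocytes from P1 Sprague Dawley rats received 100 nM trichostatin A (TSA), an inhibitor of histone deacetylases, or the solvent DMSO 1 day after plating, with 3 RNA-seq libraries each. The labels name no genetic modification and do not tie libraries to animals or litters. The study describes its replicates as biological, and p-values measure the spread between these libraries.

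EGF family ligands are made as membrane-anchored precursors, and metalloproteases such as Adam17 shed the soluble factor. Ereg, Areg, Hbegf, Btc and Tgfa bind EGFR, and Hbegf, Btc and Ereg also bind ERBB4. Nrg1 binds ERBB3 and ERBB4. ERBB2 has no known ligand of its own and pairs with the others, while ERBB3 has little kinase activity and signals through its partner. In the heart, Nrg1 released by endothelial cells and received by ERBB4 and ERBB2 on cardiomyocytes is known for its role in trabeculation and in cardiomyocyte growth.

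The depth, estimated from the coverage in the files, was 29.3 to 37.5 M aligned reads per mouse library and 28.2 to 38.5 M per rat library. All 8 cardiomyocyte markers fixed for the label check (among them Tnnt2, Tnni3 and Actc1) reached 1 FPKM in mouse and rat, and their summed level in mouse was 21233 and 28039 FPKM at E18.5, 12014 and 19395 at P1, then 8026 and 6725 at P3, and finally 2130 and 1008 at P7. FPKM is the number of fragments scaled by transcript length and by the aligned fragments of the library. The summed level of 8 fibroblast markers went the other way, from 432 to 442 FPKM at E18.5 to between 2907 and 3628 at P7. Against E18.5, 8 of 8 cardiomyocyte markers were called lower and 8 of 8 fibroblast markers higher at P7 by the test given below. Macrophage markers summed to 31.7 to 32.4 FPKM at E18.5 and 105 to 175 later, smooth muscle and pericyte markers to 36.1 to 45.4 FPKM at E18.5 and 82.5 to 99.6 at P7, and endothelial (169 to 332) and epicardial markers (116 to 236) had E18.5 and P7 ranges that overlapped. Most of the postnatal macrophage sum was that of Lyz2, at 9.45 and 10.3 FPKM at E18.5 and 94.8 and 75.7 at P7. Of the 5 macrophage markers tested, 1 was called higher and 0 lower at P7. Pdgfrb made up most of the P7 smooth muscle and pericyte sum, at 4.92 and 3.15 FPKM at E18.5 and 65.3 and 81.9 at P7. Of those 6 markers, 2 were called higher and 2 lower at P7, with a median log2 fold change of -0.24. Haemoglobin and the other erythroid markers summed to 29044 and 35391 FPKM at E18.5 and to at most 41.0 FPKM later. These marker levels moved with time point in the same libraries as every mouse RNA result, and their part in those results was not tested. The ATAC-seq peak lists are from cells isolated at the same time points. The cell make-up of those libraries was not examined here, and its part in the peak results was not tested. In bulk samples, fewer cells of a type and less RNA per cell cannot be told apart.

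Across birth Ereg, Nrg1 and Egfr were higher and Areg and Hbegf lower than at E18.5 at each postnatal time point, and Erbb2 and Erbb3 were also lower at P7. The test was limma on log2(FPKM + 1), two-sided, over genes reaching 1 FPKM in 2 or more libraries, and calls needed an adjusted p under 0.05 together with a fold change above 1 on the log2 scale. On this scale fold changes of low genes are understated. Of the 10 members, 8 passed the filter and Btc and Erbb4 did not. Areg, Egfr and Erbb3 had values under 1 FPKM on one side of the comparison, so they passed only through the time points where they were high. Of the members, 3 were called higher and 2 lower at P1, where 10.1% of all 13979 genes tested were called higher and 6.06% lower. At P3 3 were called higher and 2 lower, against 13% and 8.88% of all genes tested. At P7 3 were called higher and 4 lower, against 15.4% and 12.3%. The tested members had a median log2 fold change of 0.24 (P1), -0.06 (P3) and -0.40 (P7), and that of all genes tested was 0.15, 0.16 and 0.15. The comparisons share the 2 E18.5 libraries. The split of member calls moved with the scaling. With TPM, which scales each library to the same total, it was 4 higher and 1 lower at P1, then 4 and 2 at P3, and finally 3 and 2 at P7, and with median-of-ratios size factors it was 3 and 2, 3 and 4, and 3 and 4.

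**Figure D1:**
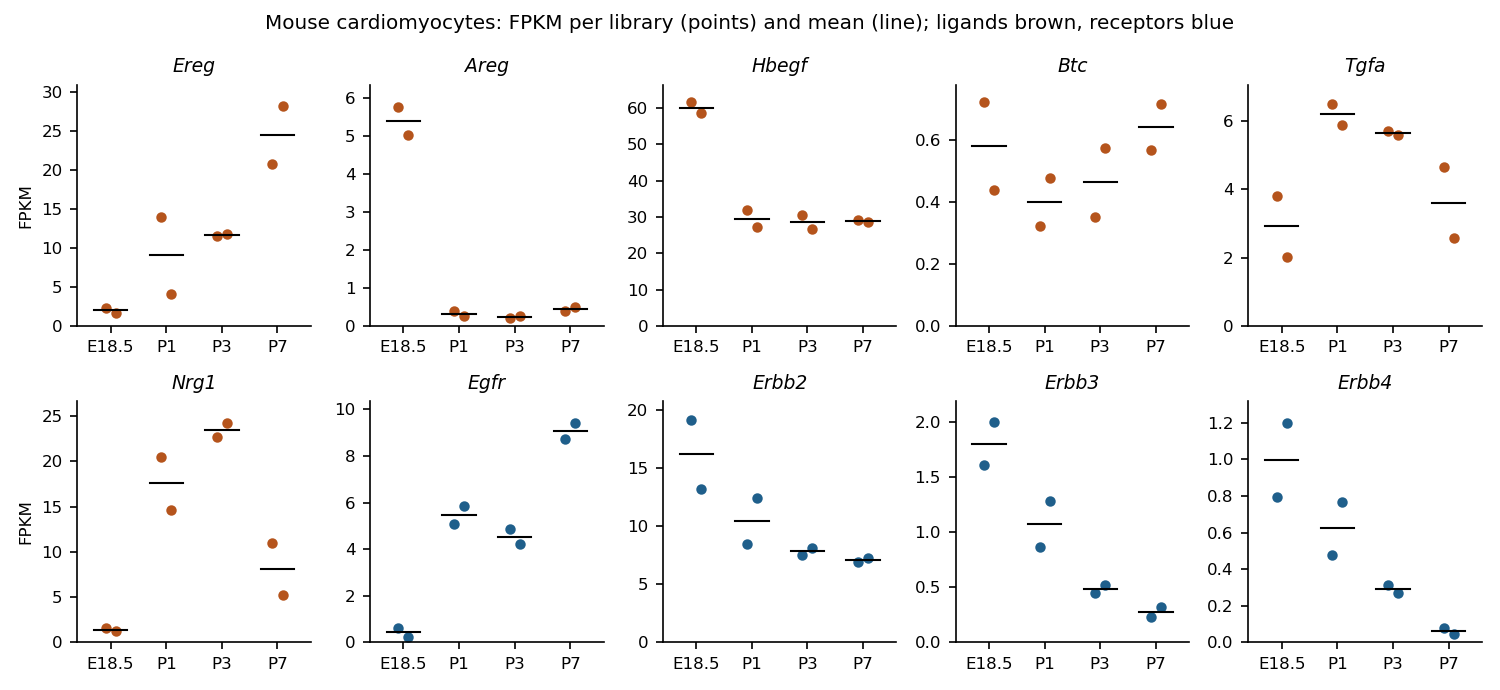
Level of each gene in FPKM (vertical axis, own linear scale from 0 per panel) in the 2 mouse RNA-seq libraries per time point (points) with their mean (line). Ereg and Egfr reach their highest mean at P7 (24.4 and 9.06 FPKM), Nrg1 at P3 (23.5 FPKM), and Areg, Hbegf, Erbb2, Erbb3 and Erbb4 at E18.5.

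Ereg, a ligand of EGFR and ERBB4, was measured at 2.35 and 1.71 FPKM at E18.5, 13.9 and 4.13 at P1, then 11.6 and 11.7 at P3, and finally 20.7 and 28.1 at P7. Every postnatal library was above both E18.5 libraries, and the libraries at P1 differed from each other by more than those of any other time point on the log scale. The fold change from E18.5 was 1.54 ± 0.43 (SE, log2 scale, n = 2 against 2) at P1 with a limma adjusted p of 0.021, 2.07 ± 0.43 at P3 with 0.0048, and 3.06 ± 0.43 at P7 with 0.00054. The mean level at P7 was 12.0 times that at E18.5 on the linear FPKM scale. The P1 call rested on single libraries. Without P1 replicate 1 the log2 fold change was 0.77 with a limma adjusted p of 0.053, and leaving out E18.5 replicate 1 (0.0608) or replicate 2 (0.113), or the expression filter (0.0832), also ended the call. At E18.5 Ereg stood at rank 5 of the 10 members by mean level, where its libraries overlapped those of Tgfa and Erbb3, and was second only to Hbegf at P7.

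Areg, the neighbour of Ereg on chromosome 5 and also a ligand of EGFR, had the opposite course. Its levels were 5.77 and 5.01 FPKM at E18.5, 0.38 and 0.27 at P1, then 0.22 and 0.25 at P3, and finally 0.39 and 0.49 at P7. Every postnatal library was below 0.5 FPKM. The log2 fold change at P1 was -2.27 ± 0.16 (limma adjusted p = 6.26e-05), and at P3 and P7 it was -2.37 and -2.15 (3.68e-05 and 2.94e-05). On the linear scale the E18.5 mean was 16.6 times the P1 mean.

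Hbegf, which is also the cell-surface receptor for diphtheria toxin in primates, was the most abundant member at every time point in mouse. It was measured at 61.5 and 58.5 FPKM at E18.5, 31.8 and 27.2 at P1, then 30.5 and 26.8 at P3, and finally 29.2 and 28.5 at P7. The postnatal libraries lay close together and all below those of E18.5. The log2 fold changes of -1.0, -1.04 and -1.03 (each ± 0.13 SE, limma adjusted p = 0.00084, 0.00047 and 0.00033) sat at the fold threshold, and none passed it when TPM replaced FPKM (-0.78, -0.81 and -0.78). The threshold was also missed at P1 without E18.5 replicate 1 or P1 replicate 2, at P3 without P3 replicate 2 and at P7 without E18.5 replicate 1 (-0.89 to -1.0). Tgfa, a ligand of EGFR, was measured at 3.8 and 2.02 FPKM at E18.5, 6.50 and 5.87 at P1, then 5.70 and 5.57 at P3, and finally 4.64 and 2.57 at P7. Its log2 fold change was 0.92 ± 0.28 at P1 (limma adjusted p = 0.030) and 0.80 ± 0.28 at P3 (0.042), and 0.24 ± 0.28 at P7 (0.49), so it was not called. At P1 it passed the fold threshold with a pseudocount of 0.1 (1.13), with TPM (1.23), with limma-voom (1.17) and without E18.5 replicate 1 (1.25). At P3 it passed with TPM (1.12), with limma-voom (1.04) and without E18.5 replicate 1 (1.14). Btc was under the filter, between 0.32 and 0.72 FPKM in all 8 libraries, and its time points overlapped except P7 with P1.

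Nrg1, the ligand of ERBB3 and ERBB4, was measured at 1.60 and 1.22 FPKM at E18.5, 20.5 and 14.7 at P1, then 22.7 and 24.2 at P3, and finally 11 and 5.22 at P7. Its level was high at P1 and P3 and intermediate at P7. The log2 fold change from E18.5 (± 0.30, SE) came to 2.93 at P1, to 3.35 at P3 and to 1.85 at P7 (limma adjusted p = 0.00030, 0.00011 and 0.0012). Of its 18 transcripts, 8 start within chr8:32009109-32009491 (mm10, minus strand), and these gave 81.1% to 94.3% of its FPKM in each library. The same group of starts thus carried most of the signal before and after birth, as divided among transcripts by the authors' StringTie run.

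Among the receptors, Egfr was called higher than at E18.5 at each postnatal time point. Erbb2 and Erbb3 were called lower at P7 but not at P1 or P3, and Erbb4 was not tested. Egfr was measured at 0.61 and 0.25 FPKM at E18.5, 5.08 and 5.85 at P1, then 4.85 and 4.24 at P3, and finally 8.71 and 9.40 at P7. It lay under 1 FPKM only at E18.5, and its log2 fold change (± 0.18, SE) came to 2.19 at P1, to 1.96 at P3 and to 2.83 at P7 (limma adjusted p = 0.00013, 0.00013 and 1.75e-05). Most of the Egfr signal was assigned to its longest transcript, and a shorter protein-coding transcript was listed at 0 in both E18.5 libraries and held 6.62% to 31.6% of the gene's FPKM in the 6 postnatal libraries.

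Erbb2, the partner receptor without a ligand, was measured at 19.2 and 13.2 FPKM at E18.5, 8.47 and 12.4 at P1, then 7.5 and 8.17 at P3, and finally 6.97 and 7.25 at P7. The postnatal libraries all lay below E18.5. Its log2 fold change stood at -0.59 ± 0.22 for P1 (limma adjusted p = 0.066), -0.94 ± 0.22 at P3 (0.0088) and -1.06 ± 0.22 at P7 (0.0041), and the P7 call was lost with TPM (-0.86) and without E18.5 replicate 1 (-0.81). At P3 it passed the fold threshold with median-of-ratios size factors (-1.14), limma-voom (-1.02), a pseudocount of 0.1 (-1.01) and without E18.5 replicate 2 (-1.19). Erbb3 was measured at 1.61 and 2.0 FPKM at E18.5, 0.86 and 1.28 at P1, then 0.45 and 0.52 at P3, and finally 0.23 and 0.32 at P7. Each time point lay wholly below the one before it. It was called at P7 only (-1.14 ± 0.17, limma adjusted p = 0.00084), with -0.44 at P1 and -0.92 at P3, where it passed the fold threshold with TPM (-1.06), with limma-voom (-1.90), with median-of-ratios size factors (-1.03), a pseudocount of 0.1 (-1.7) and without E18.5 replicate 1 (-1.02). Erbb4, the neuregulin receptor of cardiomyocytes, was under the filter and not tested. It was measured at 0.79 and 1.20 FPKM at E18.5, 0.48 and 0.77 at P1, then 0.32 and 0.27 at P3, and finally 0.080 and 0.044 at P7, so that the E18.5 mean was 16.1 times the P7 mean on the linear scale. The 6 markers of Schwann and neural crest cells, another cell type in which Erbb3 is known to act, summed to between 1.38 and 3.47 FPKM in the mouse libraries, with Sox10, Foxd3 and Cdh19 under 1 FPKM in all 8.

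**Figure D2:**
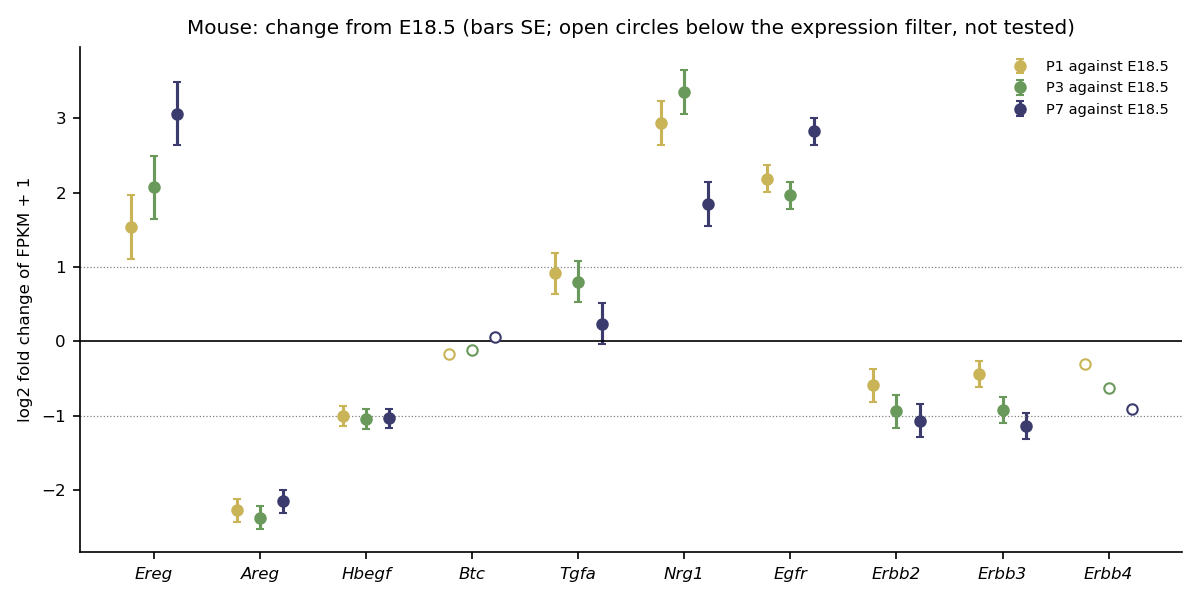
Log2 fold change of FPKM + 1 against E18.5 (vertical axis) for each gene at P1, P3 and P7, with standard errors from limma as bars and the fold threshold of 1 as dotted lines. Ereg, Nrg1 and Egfr lie above the upper line at all 3 time points, Areg lies below the lower line, Hbegf sits on it, and open circles mark Btc and Erbb4, which were not tested.

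Within the first postnatal week, 1 member was called higher and 1 lower at P7 against P1, where 3.45% of all genes tested were called higher and 5.46% lower. Ereg was higher by 1.52 ± 0.43 on the log2 scale (limma adjusted p = 0.042) and Nrg1 lower, at -1.09 ± 0.30 (0.039). Both calls were lost with no expression filter and with only these time points in the fit, that of Ereg also with a pseudocount of 0.1 (adjusted p = 0.0519 by limma), and 1 or both were lost with each of the P1 and P7 libraries left out in turn. The log2 fold change of Ereg was 0.75 without P1 replicate 2, and that of Nrg1 was -0.62 without P7 replicate 2. Egfr differed by 0.64 ± 0.18 (limma adjusted p = 0.044) and Erbb3 by -0.70 ± 0.17 (0.027), both under the fold threshold. Erbb3 passed it with a pseudocount of 0.1 (-1.64), with TPM (-1.05) and with limma-voom (-1.96). Areg (0.12), Hbegf (-0.03), Tgfa (-0.68) and Erbb2 (-0.48) were not called.

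By mean level, Hbegf led at every time point without overlap with the next gene. At E18.5 Erbb2 and Areg followed, each clear of the next, and Egfr was last, with libraries that overlapped those of Btc. At P7 Ereg followed Hbegf clear of the rest, then Egfr, Nrg1 and Erbb2 in overlapping order (9.06, 8.10 and 7.11 FPKM), and Erbb4 was last at 0.062 FPKM. Genes whose pattern was most like that of a member were sought by Pearson's r of log2(FPKM + 1) over the 8 libraries, which come from 4 time points and are not independent of them. For Ereg these were Fam171b (r = 0.993), Dpm2 (0.988) and Snx18 (0.987). For Nrg1 they were Adgrg3 (0.990), Exoc3l2 (0.989) and Abcf1 (0.988), and for Erbb4 Btbd1, Pink1 and Dusp28 (each 0.996). These values describe likeness across the time points and carry no test.

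The surrounding pathway was read from lists of known genes, to be set beside the 15.4% of all genes tested that were called higher and the 12.3% called lower at P7. Of the 9 proteins that shed EGF family ligands or help in it, all were tested, and 5 were called higher and 0 lower at P7 against E18.5, with 6 of 9 at an unadjusted limma p under 0.05. The median log2 fold change of the list was 1.26, beside 0.15 for all genes. Adam12, a metalloprotease that sheds Hbegf, was measured at 0.63 and 0.52 FPKM at E18.5 and at 17.0 and 22.8 at P7, a log2 fold change of 3.72 ± 0.18 (limma adjusted p = 8.05e-06). Adam9 (1.95), Adam10 (1.61), the main sheddase of Btc and EGF, and Adam19 (1.5), which cleaves neuregulin, were the others named by the rule. Of the 12 inhibitors that act on the receptors or the RAS to ERK path, 4 were called higher and 0 lower, with 6 of 12 at an unadjusted limma p under 0.05 and a median of 0.46. They were Spry1 (2.1), Spred1 (1.66), Spred2 (1.32), which restrain RAS to ERK signalling, and Socs5 (1.52), which promotes EGFR turnover.

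Of the 14 genes that relay the signal from the receptors to ERK, 2 were called higher and 2 lower, a share near that of all genes. The kinases Map2k1 (1.42) and Mapk3 (1.31) were higher and the adaptor Gab1 (-1.63) lower, with a list median of 0.25. Of the 11 genes that are known to respond to ERK, 3 were called higher and 2 lower, with a median of 0.37. Etv4, a transcription factor induced by the path, differed by 2.63 and Ccnd1, the cyclin of G1, by 1.59, while the immediate early gene Egr1 (-1.74) and the ERK phosphatase Dusp5 (-1.28) were lower. The ERK-responsive genes were called in both directions. Of the other EGF family ligands, Egf, Epgn, Nrg2 and Nrg4 were in the mouse files, none passed the filter, and the highest value of any was 1.29 FPKM. Nrg3 was not analysed here.

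Promoter accessibility was read from the presence of a peak whose midpoint lay within 2.5 kb of a transcript start. The lists differed in length, from 13149 and 14910 peaks at E18.5 through 29281 and 19753 at P1 and 95257 and 52040 at P3 to 49113 and 35898 at P7. Of the 10 members, 7 and 5 had a promoter peak in the E18.5 libraries, where 35.8% and 33.3% of all genes with a symbol had one. At P1 it was 7 members in replicate 1 (38.9% of genes) but 1 in replicate 2 (24.1%), the peak of Erbb4. At P3 all 10 members had a peak in both libraries (62.2% and 53.8% of genes), and at P7 it was 10 and 9 (52.5% and 50.1%). The 33632 genes with a symbol include non-coding genes, while the members are protein-coding. The share among the 21951 protein-coding genes was not computed for single libraries, so these counts are not set against a like background.

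**Figure D3:**
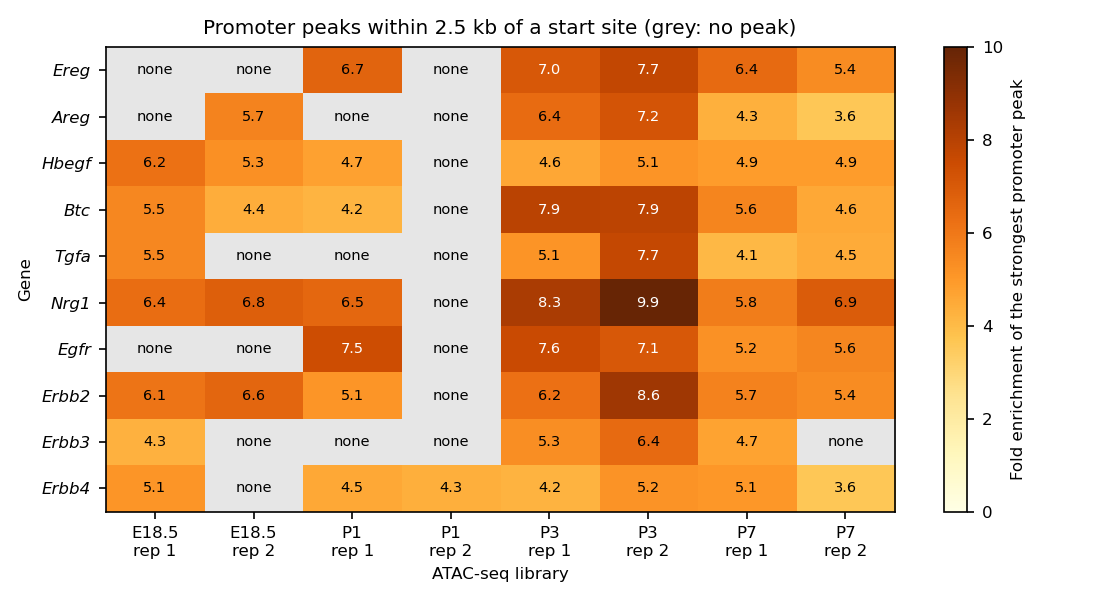
Fold enrichment at the summit of the strongest promoter peak (colour and number) for each gene (rows) in each ATAC-seq library (columns), with grey where no peak was listed. Ereg and Egfr have no peak in either E18.5 library and one in every P3 and P7 library, and P1 replicate 2 lacks a peak for every gene but Erbb4.

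Ereg and Egfr were the 2 members with a promoter peak in both P3 libraries and in neither E18.5 library, and the same 2 members met this at P7. No member met it at P1. Among all genes with a symbol the shares meeting it were 1.33% for P1, 15.0% for P3 and 9.58% for P7, and among protein-coding genes they were 14.9% at P3 and 10.2% at P7, so that 2 of 10 is near the background. When the 13149 peaks of highest score were kept in each list, Ereg alone of the members met the rule at P3 and P7, against 1.10% and 1.09% of protein-coding genes. The study had already shown the Ereg promoter as an example of such a gain in these data. These shares therefore only describe Ereg and are not a test of it. The Ereg peak had a fold enrichment of 6.66 at P1 in replicate 1, 7.05 and 7.72 at P3 and 6.44 and 5.38 at P7. Its score ranked at the 65.5th percentile of the list in P1 replicate 1, at 94.3 and 86.8 at P3, and at 91.5 and 74.1 at P7. At P3 and P7 it was 890 to 1160 bp wide and its midpoint lay 132 to 277 bp upstream of the only annotated start (chr5:91074622-91093646, mm10, plus strand). The Egfr peak, at fold enrichments of 7.46 at P1 in replicate 1, 7.55 and 7.06 at P3, and finally 5.21 and 5.57 at P7, ranked between the 59.2nd and the 84.6th percentile.

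Areg had a peak in E18.5 replicate 2 (5.65), in neither P1 library, and in both libraries at P3 (6.38 and 7.22) and P7 (4.32 and 3.61), where its level was under 0.5 FPKM. Nrg1 had a peak in both E18.5 libraries (6.36 and 6.83) at the same group of starts that gave most of its FPKM, and in 7 of 8 libraries in all. The peaks of Hbegf, Btc and Erbb2 were also listed in 7 of 8 libraries. Erbb4 had peaks in 7 of 8 libraries although its level at P7 was at most 0.080 FPKM, but these lay up to 1792 bp from the nearest start and none ranked above the 53.8th percentile. Tgfa had peaks in 5 libraries and Erbb3 in 4, with fold enrichments of 4.07 to 7.67 and 4.26 to 6.41.

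The ligand genes Epgn, Ereg, Areg and Btc lie together on mouse chromosome 5 (chr5:91027464-91402994, mm10, 375.5 kb). The lists held 1 and 2 peaks there at E18.5, 5 and 1 at P1, then 31 and 16 at P3, and finally 11 and 6 at P7. Per 10000 peaks of each list this was 0.76 and 1.34 at E18.5, 1.71 and 0.51 at P1, then 3.25 and 3.07 at P3, and finally 2.24 and 1.67 at P7. This scaling takes out the length of a list but not the kind of region that a longer list adds. Other stretches of the genome were not counted, so the higher P3 values cannot be called particular to these genes. Within 20 kb of the Ereg start neither E18.5 list held a peak, and the lists held 2 and 0 at P1, then 5 and 4 at P3, and finally 3 and 2 at P7.

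**Figure D4:**
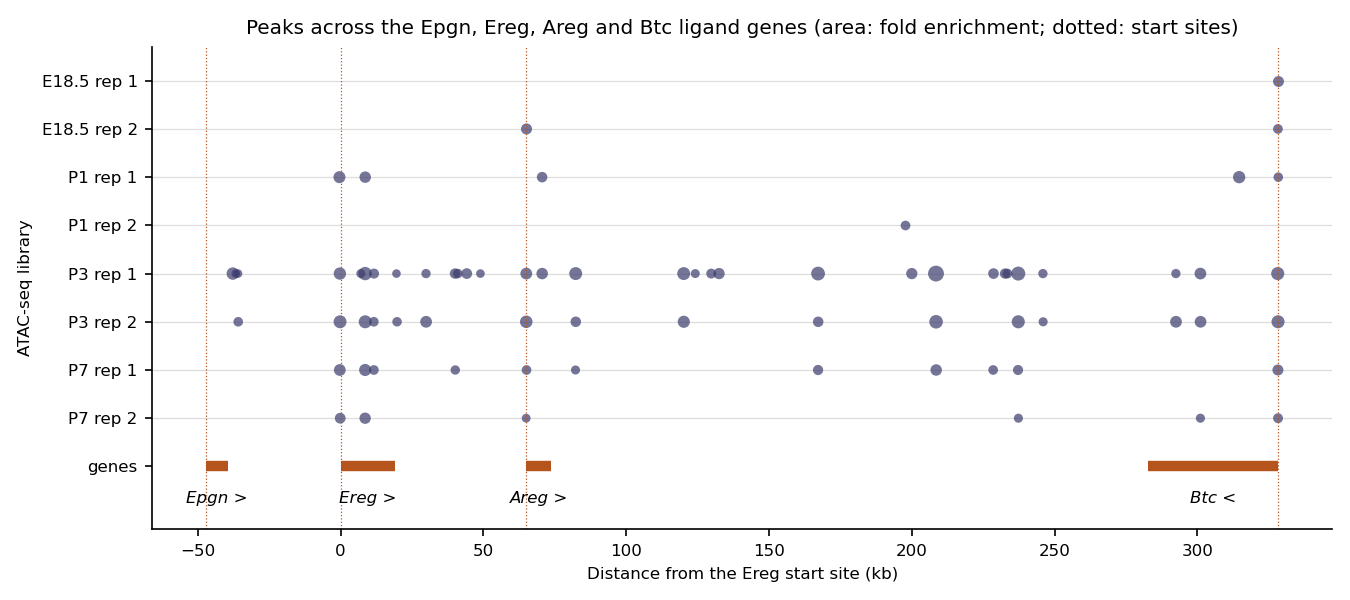
Peaks of each ATAC-seq library (rows, point area by fold enrichment) across the Epgn, Ereg, Areg and Btc genes (brown bars, arrowheads give the strand), by distance from the Ereg start in kb. The E18.5 libraries hold 1 and 2 peaks, at the starts of Btc and Areg, while every P3 and P7 library holds one at the Ereg start and one over the stretch 8.53 to 8.71 kb from it.

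The second peak at Ereg lay in the first intron and was listed in the same 5 libraries as the promoter peak. It was singled out after its values were seen, as the region of the first intron beyond the promoter window that most libraries share. Its fold enrichment was 6.06 in P1 replicate 1, 8.25 and 7.79 at P3 and 6.79 and 5.96 at P7, and its score ranked at the 52.6th percentile at P1, at 96.5 and 77.0 at P3 and at 87.7 and 79.8 at P7. The 188 bases common to the 5 peaks are chr5:91083148-91083335 (mm10, plus strand), 8.53 to 8.71 kb from the start, with a GC content of 55.3%. They are shown because this is the stretch of Ereg, beside its promoter, where a peak was listed in no E18.5 library and in every P3 and P7 library. The E18.5 lists are the shortest. Capitals mark matches to the AP1 motif TGACTCA on either strand, at bases 114 to 120 and 146 to 152.
Ereg intron 1: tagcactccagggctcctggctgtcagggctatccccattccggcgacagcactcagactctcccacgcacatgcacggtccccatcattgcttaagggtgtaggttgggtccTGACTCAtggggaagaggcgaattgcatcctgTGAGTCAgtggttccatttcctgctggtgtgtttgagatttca
Of 49016 windows of 188 bases centred on the peaks of P7 replicate 1, 17.1% held at least 1 match to this motif and 1.82% held 2 or more. The stretch held no match to the CRE motif TGACGTCA, the ETS motif ACCGGAAG, the SP motif GGGGCGGGG or the MEF2 consensus, which were found in 0.712%, 0.914%, 3.28% and 1.83% of these windows. A match is a description of the letters and not of a bound site.

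RefSeq promoter sequences (GRCm38.p6) were given for 6 of the 10 members, Areg, Btc, Tgfa, Egfr, Erbb2 and Erbb4. The 250 bases before the start are printed for Egfr and Areg, the members whose RNA moved furthest in opposite directions among these. Capitals mark a match to the ETS motif on the minus strand in Egfr, 120 to 113 bases before the start, and to the CRE motif in Areg, 61 to 54 bases before the start.
Egfr, chr11:16751953-16752202, plus strand: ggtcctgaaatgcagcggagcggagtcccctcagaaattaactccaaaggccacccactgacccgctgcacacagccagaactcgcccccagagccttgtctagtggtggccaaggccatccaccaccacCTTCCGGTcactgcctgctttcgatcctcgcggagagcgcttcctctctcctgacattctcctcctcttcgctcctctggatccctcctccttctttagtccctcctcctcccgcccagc
Areg, chr5:91139349-91139598, plus strand: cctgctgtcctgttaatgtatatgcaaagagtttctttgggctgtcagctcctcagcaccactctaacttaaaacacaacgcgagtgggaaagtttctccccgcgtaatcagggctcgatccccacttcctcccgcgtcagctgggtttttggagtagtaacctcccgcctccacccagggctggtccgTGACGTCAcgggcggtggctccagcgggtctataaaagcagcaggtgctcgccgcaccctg
Among 32851 promoter windows of 250 bases, 1.72% held the ETS motif, 1.55% the CRE motif, 4.46% the AP1 motif, 10.4% the SP motif and 2.92% the MEF2 consensus. The CRE match lay inside the Areg peak of both P3 libraries and P7 replicate 2 and outside that of E18.5 replicate 2 and P7 replicate 1. The ETS match lay inside the Egfr peak of both P3 and both P7 libraries and outside that of P1 replicate 1. Tgfa held 1 SP match, and Btc, Erbb2 and Erbb4 held no match to any of the 5 motifs.

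In rat cardiomyocyte cultures no member was called with TSA. Of the 10 members, 7 passed the filter of 1 FPKM in at least 3 libraries, and limma called 0 of them higher and 0 lower, with 0 at an unadjusted p under 0.05 and 0 called by limma-voom. Among all 13625 genes tested, 1.81% were called higher and 0.316% lower. With 3 libraries against 3 the exact permutation test, two-sided, cannot give a p below 0.10, and over the 10 members it gave 0.20 to 1.0. The libraries of replicate 3 stood apart, with summed cardiomyocyte markers of 18568 FPKM for DMSO and 28909 for TSA where the other 4 libraries held 9601 to 10888. The summed macrophage markers were 472 to 991 FPKM with DMSO and 385 to 515 with TSA, and the summed fibroblast markers 6383 to 6930 and 3565 to 5965, and their part was not tested. No member was called with any 1 library left out.

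Ereg was under the filter in rat, at 0.58, 0.83 and 2.11 FPKM with DMSO and 0.59, 0.35 and 0.79 with TSA, and the groups overlapped. Its exact permutation p was 0.30. DMSO replicate 3 was also highest for Hbegf, which was measured at 8.15, 5.97 and 40.3 FPKM with DMSO and at 8.50, 8.38 and 13.6 with TSA. The log2 fold change of Hbegf was -0.34 ± 0.64 (limma adjusted p = 0.82), and 0.45 without DMSO replicate 3. Erbb4, under 1 FPKM in most mouse libraries, was measured in rat at 3.93, 3.42 and 2.17 FPKM with DMSO and at 4.93, 5.87 and 3.8 with TSA. It was higher with TSA in 3 of 3 same-numbered pairs, but the groups overlapped, and the log2 fold change of 0.50 ± 0.22 was not called (limma adjusted p = 0.27, and 0.11 with the replicate number as a block).

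Nrg1 was measured at 7.15, 6.09 and 9.29 FPKM with DMSO and at 7.10, 6.23 and 4.95 with TSA, and Erbb2 at 12.4, 12.2 and 11.1 with DMSO and at 11, 12.2 and 7.5 with TSA. For both genes the groups overlapped, with log2 fold changes of -0.26 ± 0.19 and -0.22 ± 0.18 (limma adjusted p = 0.51 and 0.55). Egfr, at 4.49 to 5.73 FPKM in all 6 libraries, differed by -0.12 ± 0.13. Areg (0.50 to 1.68 FPKM), Tgfa (0.99 to 2.59) and Btc (0.37 to 1.54) overlapped between the groups, and Erbb3 was at most 0.45 FPKM. Of these and the genes above, Btc and Tgfa were also higher with TSA in 3 of 3 same-numbered pairs and Erbb2 in 0 of 3, with exact permutation p-values of 0.20, 0.40 and 0.20 that ignore the pairing. Of the pathway lists, 9 shedding genes, 12 inhibitors, 14 relay genes and 11 ERK-responsive genes were tested with limma and 0 were called in either direction, with 0, 0, 0 and 2 at an unadjusted p under 0.05. The other EGF family ligands Egf, Nrg2 and Nrg4 were under the filter. The genes most like Ereg over the 6 rat libraries were Pum3 (r = 0.988), Slco3a1 (0.980) and Rpn2 (0.977), a description of libraries in which Ereg is low.

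**Figure D5:**
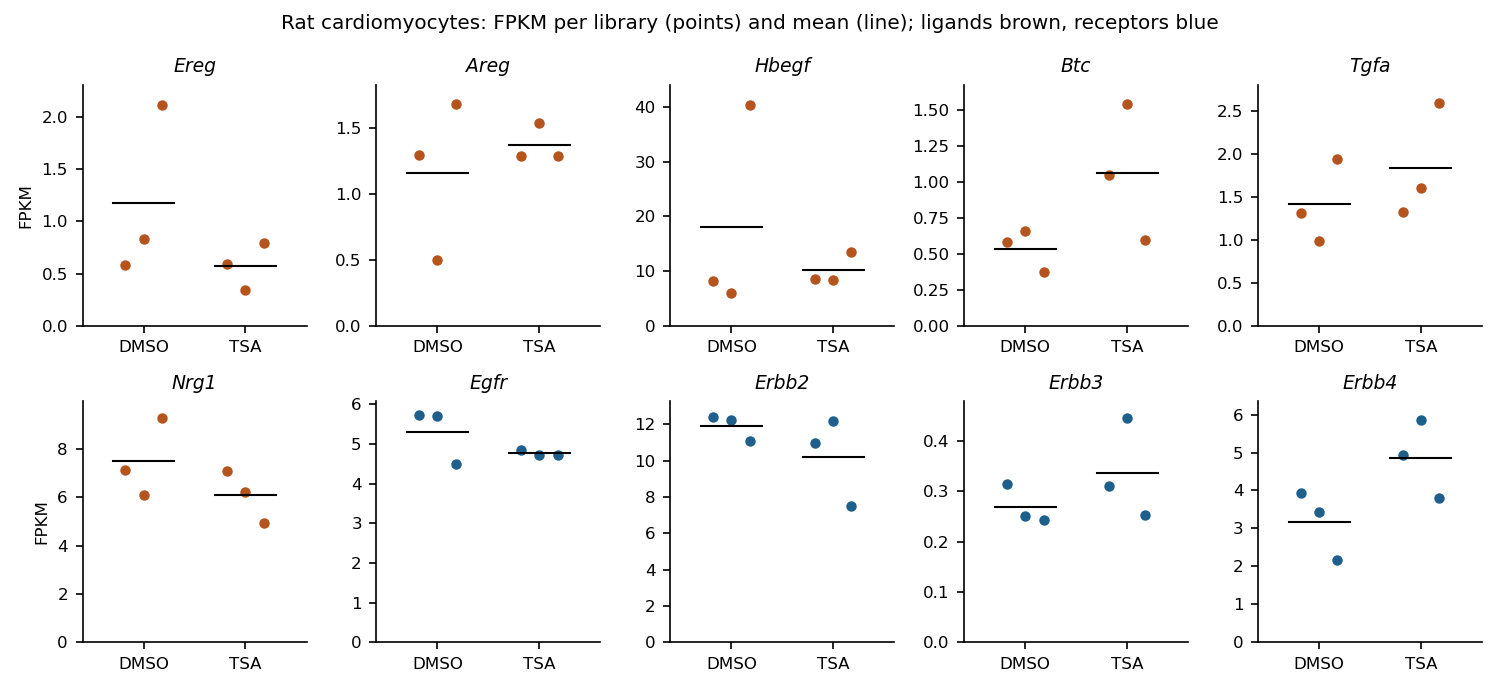
Level of each gene in FPKM (vertical axis, own linear scale from 0 per panel) in the 3 rat RNA-seq libraries per treatment (points) with their mean (line). The treatments overlap for all 10 genes, and 1 DMSO library stands apart for Hbegf at 40.3 FPKM.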

How the data were processed

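The members and gene lists were chosen with earlier results of these data known. Per the file headers and the methods, the authors aligned RNA-seq reads with HISAT2 2.1.0 and ran StringTie on mm10 with GENCODE vM21 or Rnor_6.0 with Ensembl 103. The deposited files give FPKM, TPM and coverage per transcript, and the gene value used here is the sum over transcripts. The authors called ATAC-seq peaks per library with MACS2 on mm10, and the deposited lists hold a score, a fold enrichment ratio, and −log10 p-values and q-values. Peaks were ranked by the score, which is 10 times the −log10 q-value, and the p-values were not used.

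The genes reaching 1 FPKM in 2 or more mouse or 3 or more rat libraries (13979 and 13625 genes) were tested with limma 3.58.1 (R 4.3.3, trend) on log2(FPKM + 1), with all 8 mouse or all 6 rat libraries in a fit and Benjamini-Hochberg adjustment over all genes tested. The method was tested on simulated data. Members were also compared in rat by an exact permutation test (scipy 1.17.1). Of the other lists, at most 4 genes each were named, those with the largest change among genes called at P7. Some genes of these lists are not reported here by name. Same-numbered rat libraries deviated together over genes (r = 0.224, 0.194 and 0.346), so the blocked fit was read as paired in rat. No label states this pairing, and the limma results given for rat are unpaired unless a block is named. Differently numbered rat libraries ranged from -0.27 to 0.167, so the highest of these came close to the lowest same-numbered value. Strand was not stated, so reads of overlapping genes cannot be told apart. Alternatives were other pseudocounts, filters, scalings, peak subsets and windows, limma-voom on reads estimated from coverage, a replicate block and leaving out each library. The 6 HiChIP libraries were not analysed here.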

Additional observations from a re-analysis of the deposited data

How the results depend on the processing

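Of the member values recomputed, 419 were counted as unchanged, 19 were called anew, 24 were no longer called and 5 reversed. For members tested in the main fit, unchanged meant the same direction and the same call. For members under the filter it meant a fold change that differed from the main one by no more than the larger within-group SD. Some alternatives, such as the filters and the replicate block, leave the fold change as it is and can change only the p-value. With a mean FPKM of at least 5 the members called were 3 at P1, 3 at P3 and 4 at P7, where only 4 members were tested, and limma-voom called 8 at P3. No member was called at P7 against P1 with no expression filter or with only these time points in the fit (0 and 0). Leaving out each library in turn, members called were 4 in every case at P1, 4 to 7 at P3, 5 to 7 at P7, 0 to 1 at P7 against P1 and 0 with TSA. Promoter gains were 1 at P3 and 1 at P7 with an equal number of top peaks and 6 at P3 with the better-scored part of each list (above its median score), and leaving out each library gave 0 to 2 at P1, 2 to 5 at P3 and 2 to 4 at P7, the highest without E18.5 replicate 1 at P3 and P7 and without P1 replicate 2 at P1. Log2 fold changes that reversed with 1 library left out were those of Tgfa at P7 (range -0.0978 to 0.573, negative without E18.5 replicate 2 or P7 replicate 1), Hbegf at P7 against P1 (-0.138 to 0.0811, positive without P1 replicate 1), Areg with TSA (-0.0681 to 0.351, negative without DMSO replicate 2) and Hbegf with TSA (-0.832 to 0.450, positive without DMSO replicate 3). Among all genes, calls at P1 were 1411 higher and 847 lower, 2568 and 752 with TPM, and 1012 and 1201 with median-of-ratios size factors. At P3 the split was 1814 and 1241, with TPM 3068 and 1056, and with size factors 1367 and 1626. At P7 it was 2155 and 1715, with TPM 3361 and 1576, and with size factors 1727 and 2072. TPM moved the median log2 fold change of all genes from 0.15 to 0.38 at P1, and the cause was not tested.

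With the replicate number as a block, members called were 5 at P1, 5 at P3, 7 at P7, 2 at P7 against P1 and 0 with TSA, as without it. Same-numbered mouse libraries did not deviate together at every pair of time points (r from -0.0964 to 0.171), so they were read as sharing only a number. With 2 libraries per time point, and most values of Btc, Erbb4 and rat Erbb3 under 1 FPKM, small differences were not detectable.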
